A study of Mus musculus with 35 samples.

Results

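The translation factors and aminoacyl-tRNA synthetases of mouse hematopoietic stem/progenitor cells (HSPCs) were followed in WT and JMJD1B−/− bone marrow. Members were taken by gene name from the deposited RNA-seq table: names that begin with Eif1 to Eif6, Eef1 or Eef2, apart from the antiviral kinase gene Eif2ak2, and the names of most synthetase genes. This gave 97 of the 11982 genes in the table, 63 factor genes and 34 synthetase genes. Synthetase genes that the rule does not take, such as Eprs, Pars2, Fars2 and Tarsl2, are given in a separate list. JMJD1B, encoded by Kdm3b, removes methyl groups from histone arginine and lysine residues, and the study asked how its loss changes histone marks and gene expression in HSPCs. RNA-seq was done on polyA RNA of HSPCs from bone marrow, with 2 biological replicates per genotype, and the remaining samples of the 35 in the series are not used here. Libraries were made with a TruSeq kit. Both genotypes are labelled with the strain 129P2xC57BL/6J, and the labels enter a gene-trap knockout as the treatment of all 4 libraries, WT included, so the groups were taken from the genotype labels. Adult mice of both sexes were used in the study. The labels give no age or sex for a library, and how the HSPCs were isolated is not given in the sources used here.

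Translation starts when eIF2 brings the initiator tRNA to the small ribosomal subunit, eIF3 holds that complex together, and the eIF4 factors bind the mRNA cap and unwind the leader. eIF2B recharges eIF2 with GTP, and kinases of the integrated stress response block this exchange by phosphorylating eIF2. Elongation factors then deliver charged tRNAs and move the ribosome, while aminoacyl-tRNA synthetases join each amino acid to its tRNA in the cytosol or in mitochondria. Blood stem cells are known for a low rate of protein synthesis, which increases as progenitors commit and divide.

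Expression is given in RPKM, a read count divided by transcript length and by library size. The steps between low values, with annotated gene lengths, placed the depth near 17500000 and 24600000 reads for WT replicates 1 and 2. For JMJD1B−/− replicates 1 and 2 it was near 6100000 and 21000000. JMJD1B−/− replicate 1 was thus the shallowest library, at 0.349 times the depth of WT replicate 1. A transcript of 1 kb with 3 reads had 0.491 RPKM there and 0.122 RPKM in WT replicate 2, and these limits cover counting error only. No member was at 0 in any library.

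The targeted gene Kdm3b was at 31.0 and 24.3 RPKM in the WT libraries and at 4.00 and 4.63 RPKM in JMJD1B−/− replicates 1 and 2. Both knockout libraries lay far below both WT libraries, with a log2 fold change of −2.65 ± 0.24 (SE) and an adjusted p of 0.0314 in limma. The adjusted p was 0.0614 with median-ratio scaling, 0.0991 with quantile normalization, 0.212 with limma without a trend and 0.608 in a gene-by-gene test. It was 0.796 without WT replicate 1 and 0.619 without WT replicate 2, and the unadjusted p was under 0.05 in each of these. The libraries also differed in sex-linked RNA. Xist, the RNA that silences an X chromosome in female cells, was at 332 RPKM in WT replicate 2 and at or below 0.0510 RPKM in the other 3 libraries. The Y-linked Ddx3y was at 25.5 and 0.411 RPKM in the WT libraries and at 27.5 and 29.3 RPKM in JMJD1B−/− replicates 1 and 2. WT replicate 2 thus carried the RNA pattern of female cells and the other 3 that of male cells. Uty, also on the Y chromosome, was at 17.7 and 0.453 RPKM in WT against 15.7 and 18.9 RPKM in JMJD1B−/− HSPCs.

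The HSPC label was compared with marker genes. All 12 stem and progenitor markers were listed, among them the receptor gene Kit at 66.9 and 62.5 RPKM in the WT libraries and at 51.6 and 92.7 RPKM in JMJD1B−/− replicates 1 and 2, and the most abundant was the transcription factor gene Myb at 191 and 185 RPKM in the WT libraries and at 137 and 211 RPKM in JMJD1B−/− replicates 1 and 2. Their summed level was 524 and 499 RPKM in WT and 335 and 453 RPKM in JMJD1B−/− replicates 1 and 2. Of the 12 markers, 11 had a negative log2 fold change and 1 a positive one, where 47.0% of all genes tested had a positive value. The median was −0.63, against −0.02 over all genes tested. Both knockout libraries lay below both WT libraries in 6 markers and above in 0, beside 22.7% and 20.1% of all genes tested. The HSC-enriched genes Procr and Ly6a were low, at 1.47 and 0.615 RPKM in WT against 0.543 and 0.180 RPKM in JMJD1B−/− HSPCs and 1.92 and 2.96 RPKM in WT against 2.17 and 0.629 RPKM in JMJD1B−/− HSPCs. With median-ratio scaling 0 genes of this list were called higher and 3 lower at an unadjusted p under 0.05 in limma. Without that scaling 0 were called higher and 5 lower, beside 3.81% and 6.33% of all genes tested. That became 0 and 2 without WT replicate 1 and also without WT replicate 2, and 1 and 6 without JMJD1B−/− replicate 1.

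Marker genes of the blood lineages were compared in the same way, beside the same 3.81% of all genes called higher and 6.33% called lower. Of 12 erythroid markers, 11 were called higher and 0 lower, and all 12 were higher in both JMJD1B−/− libraries than in both WT libraries. Their summed level was 842 and 1199 RPKM in WT and 2273 and 3448 RPKM in JMJD1B−/− replicates 1 and 2, led by the carbonic anhydrase gene Car1. All 8 listed basophil and mast cell markers were called lower, led by the protease gene Prss34, with a summed level of 579 and 629 RPKM in WT and 141 and 93.3 RPKM in JMJD1B−/− replicates 1 and 2. Of 13 granulocyte markers 11 were tested, 7 were called lower and 2 higher, with Mpo the most abundant and a summed level of 308 and 211 RPKM in WT and 101 and 59.8 RPKM in JMJD1B−/− replicates 1 and 2. The granulocyte calls were 4 lower and 3 higher without WT replicate 1, and 5 and 1 without WT replicate 2. Camp, a gene of late granulocytes, was at 0 in WT replicate 2 and JMJD1B−/− replicate 1.

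Megakaryocyte markers, led by the chemokine gene Pf4, summed to 685 and 621 RPKM in WT and 267 and 377 RPKM in JMJD1B−/− replicates 1 and 2, and 5 of 7 were called lower, or 3 without WT replicate 1. Of 7 listed monocyte and macrophage markers, led by Ccr2, 3 were called lower, or 5 without JMJD1B−/− replicate 1 and 0 without WT replicate 1, and the summed level was 109.6 and 134 RPKM in WT and 104 and 26.6 RPKM in JMJD1B−/− replicates 1 and 2. T and NK cell markers, led by the cytotoxic granule gene Nkg7, summed to 24.1 and 30.0 RPKM in WT and 54.7 and 15.1 RPKM in JMJD1B−/− replicates 1 and 2, with 2 of 8 called higher and 1 lower. Without JMJD1B−/− replicate 2 the T and NK calls were 6 higher and 1 lower, and without JMJD1B−/− replicate 1 they were 1 and 2, while leaving out either WT library left 1 higher. Of 8 B cell markers only Cd79b was listed, at 3.28 and 1.99 RPKM in WT against 1.22 and 0.631 RPKM in JMJD1B−/− HSPCs, and its call of lower was lost with quantile normalization, without JMJD1B−/− replicate 2, without WT replicate 1 and without WT replicate 2. The 6 listed stroma and endothelium markers, led by Pecam1, summed to 40.0 and 69.3 RPKM in WT and 24.3 and 11.0 RPKM in JMJD1B−/− replicates 1 and 2, with 2 called lower, or 4 without WT replicate 1, 1 without WT replicate 2 and 3 when either knockout library was left out. These are bulk samples, so fewer cells of a type and less RNA per cell cannot be told apart.

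Few translation genes passed the test, and the median of the set was slightly above that of all genes, more so in JMJD1B−/− replicate 2 than in JMJD1B−/− replicate 1. The median log2 fold change of the 97 members was 0.17, against −0.02 over all 11863 genes tested. A positive value was found in 78 members (80.4%) and a negative one in 19, where 47.0% of all genes tested had a positive value. At an unadjusted p under 0.05 in limma, 6 members were called higher (6.19%) and 0 lower, where 3.81% of all genes tested were called higher and 6.33% lower. The 6 were Eef1e1, Eif2b1, Eif3i, Eif3l, Hars and Eif3d. None passed an adjusted p of 0.05 in limma, a threshold that 5 genes of the table passed (0.0421%), and the lowest adjusted p of a member was 0.278. Both knockout libraries exceeded both WT libraries in 33 members (34.0%), where this was so for 20.1% of the genes tested. They lay below both in 5 members (5.15%), where this was so for 22.7%. With 2 libraries in each group, an exact permutation test of a single gene cannot go below 0.333.

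The scaling of the libraries moved these counts. With quantile normalization 10 members were called higher and 2 lower, and over all genes the calls went from 452 higher and 751 lower to 671 and 714. With median-ratio scaling the members' calls were 11 higher and 1 lower, and those over all genes 632 and 747. The median log2 fold change of the members was 0.14 with quantile normalization and 0.18 with median-ratio scaling, against medians of 0.02 and −0.01 over all genes. The direction of 11 members flipped under quantile normalization.

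The median deviation of the members from the WT mean was 0.02 in JMJD1B−/− replicate 1, within the −0.08 and 0.08 of the WT libraries, and 0.33 in JMJD1B−/− replicate 2. Over all genes tested the median deviation was −0.10 in JMJD1B−/− replicate 1 and 0.09 in JMJD1B−/− replicate 2. JMJD1B−/− replicate 2 exceeded both WT libraries in 79 members (81.4%) and in 46.5% of the genes tested, while JMJD1B−/− replicate 1 did so in 34 (35.1%) and in 29.6%. JMJD1B−/− replicate 1 lay below both in 25 members (25.8%) and in 49.0% of the genes tested. The summed level of the members was 8450.4 and 8828 RPKM in WT and 8687 and 10569 RPKM in JMJD1B−/− replicates 1 and 2. Without JMJD1B−/− replicate 1 the median log2 fold change was 0.33, with 24 members called higher and 0 lower, and without JMJD1B−/− replicate 2 it was 0.02, with 4 called higher and 3 lower. Over all genes the medians in these fits were 0.09 and −0.10, with 1258 called higher and 1309 lower without JMJD1B−/− replicate 1, and 727 and 1819 without JMJD1B−/− replicate 2, so calls became more frequent in the whole table too. The WT libraries also differed from each other, since WT replicate 2 exceeded WT replicate 1 in 76 members (78.4%), against 50.6% of all genes. Without WT replicate 1 the median was 0.09 with 3 members called higher, and without WT replicate 2, which leaves the 3 libraries of male pattern, it was 0.25 with 4 called higher and 1 lower. The calls over all genes in these fits were 123 higher and 177 lower, and 250 and 272. An adjusted p of 0.05 in limma was passed by 2 members of 630 genes without JMJD1B−/− replicate 1, by 1 of 669 without JMJD1B−/− replicate 2 and by 1 of 4 without WT replicate 1. In each of these fits the lone library is assumed to vary like the others. Leaving out a library also loosens the comparison of groups without overlap. The members above went from 33 to 79 without JMJD1B−/− replicate 1 and to 66 without WT replicate 2 (68.0%), where 31.8% of all genes lay above. The members below went from 5 to 25 without JMJD1B−/− replicate 2, to 13 without WT replicate 1 (13.4%) and to 9 without WT replicate 2 (9.28%), where 31.9% and 34.9% of all genes lay below in the latter pair of comparisons. The lineage markers differed between the same libraries, as did depth, and their part in the members' values was not tested.

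**Figure D1:**
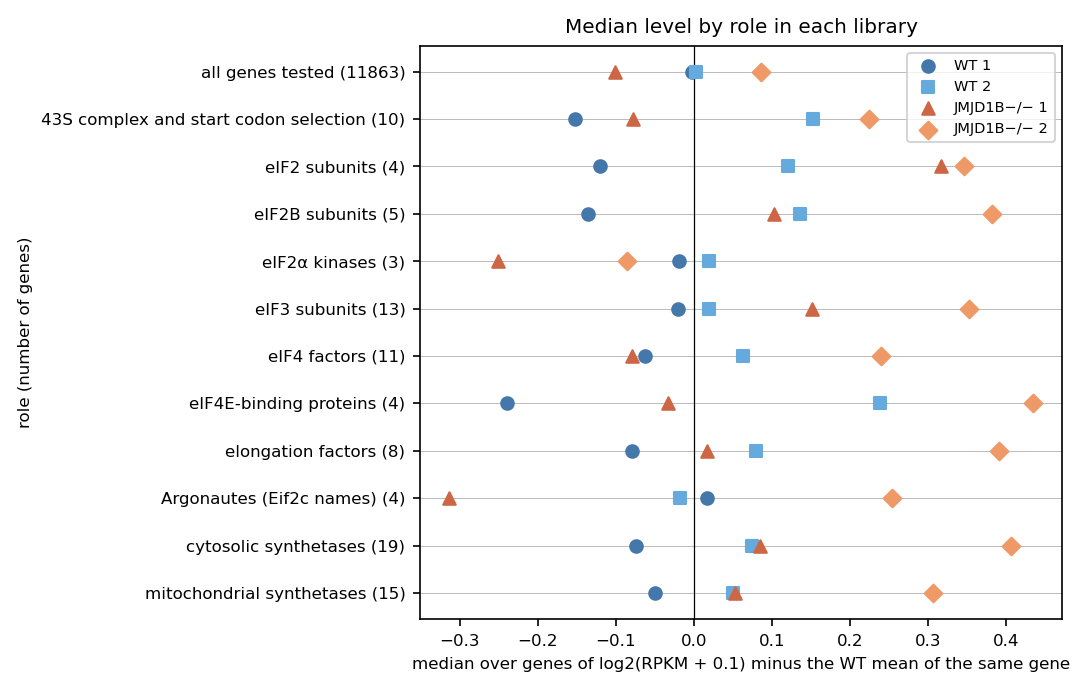
Each point is the median over the genes of a role of log2(RPKM + 0.1) in a library minus the WT mean of the same gene, with WT replicates as blue circles and squares and JMJD1B−/− replicates as orange triangles and diamonds. The WT points are mirror images by construction, and JMJD1B−/− replicate 2 lies right of both WT points for all genes tested and for every role drawn except the eIF2α kinases. The elongation factors drawn include Eef1e1. The difference of the genotype medians changes sign under quantile normalization for all genes tested, the eIF4 factors and the Argonautes.

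Members covered a wide range of levels. The elongation factor gene Eef1a1 was the most abundant, at 2927 and 3075 RPKM in the WT libraries and at 2944 and 3625 RPKM in JMJD1B−/− replicates 1 and 2, and made up 34.7% of the members' summed RPKM in WT. Eif5a2, the minor gene of the hypusine-containing factor eIF5A, was the least abundant, at 1.41 and 1.79 RPKM in the WT libraries and at 1.38 and 1.34 RPKM in JMJD1B−/− replicates 1 and 2. The median member had a mean of 36.9 RPKM over the 4 libraries, against 10.4 RPKM for all genes tested, and 16 members were above 100 RPKM and 12 under 10 RPKM. Members of few RPKM rest on few reads in the shallow library. Eef1a1 has many copies of its sequence in the genome, and Eif1a and Eif1ax are near-identical, so how reads of shared sequence were assigned is uncertain.

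The group with the most calls was eIF3, the scaffold complex that joins the small ribosomal subunit to the mRNA. Of its 13 subunit genes, 3 were called higher and 0 lower, where 3.81% of all genes were called higher. In 6 subunit genes both knockout libraries exceeded both WT libraries, as in 20.1% of all genes, and the median log2 fold change was 0.27, or 0.15 with quantile normalization and 0.15 without JMJD1B−/− replicate 2. Eif3i, a core subunit with WD repeats, was at 45.4 and 45.5 RPKM in the WT libraries and at 61.8 and 68.4 RPKM in JMJD1B−/− replicates 1 and 2. The WT values nearly coincided and both knockout values stood above them. It had a log2 fold change of 0.51 ± 0.17 (SE), with an adjusted p of 0.415 in limma. Eif3l was at 61.0 and 62.7 RPKM in the WT libraries and at 81.8 and 87.5 RPKM in JMJD1B−/− replicates 1 and 2, again without overlap, and its log2 fold change was 0.45 ± 0.17 (SE) with an adjusted p of 0.439 in limma. Eif3d, a subunit that can itself bind the cap of some mRNAs, was at 65.98 and 66.4 RPKM in the WT libraries and at 82.0 and 94.6 RPKM in JMJD1B−/− replicates 1 and 2. The groups did not overlap and the log2 fold change was 0.41 ± 0.17 (SE), with an adjusted p of 0.489 in limma. All 3 calls were lost when either of the WT libraries was left out, while the log2 fold changes were 0.51, 0.43 and 0.41 for Eif3i, Eif3l and Eif3d without WT replicate 1 and 0.51, 0.47 and 0.42 without WT replicate 2. Without WT replicate 1 the unadjusted p was 0.0971 for Eif3i, 0.140 for Eif3l and 0.170 for Eif3d. Without WT replicate 2 it was 0.0974, 0.115 and 0.165 in the same order, and without JMJD1B−/− replicate 2 it was 0.0573 for Eif3l and 0.131 for Eif3d. Limma without a trend also lost all 3, at 0.0592 for Eif3i, 0.0811 for Eif3l and 0.114 for Eif3d, and a gene-by-gene test lost Eif3d (0.0571). Without JMJD1B−/− replicate 1, 6 subunits were called higher.

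The most abundant eIF3 subunits went the other way or nowhere. Eif3a, the largest subunit, was at 163 and 215 RPKM in the WT libraries and at 189 and 166 RPKM in JMJD1B−/− replicates 1 and 2, and WT replicate 2 was the highest library. Eif3c, which anchors the core with eIF3a, was at 125 and 172 RPKM in the WT libraries and at 128 and 128 RPKM in JMJD1B−/− replicates 1 and 2, where again WT replicate 2 stood alone. Their log2 fold changes, −0.08 ± 0.20 (SE) and −0.20 ± 0.21 (SE), were no larger than the spread within WT, and without WT replicate 2 they were 0.11 and 0.03. Eif3a was also 0.01 without JMJD1B−/− replicate 2. Eif3j, a loosely attached subunit, was at 37.0 and 51.5 RPKM in the WT libraries and at 59.7 and 62.2 RPKM in JMJD1B−/− replicates 1 and 2, which put both knockout libraries above WT, but WT replicate 1 was well below WT replicate 2 and limma gave an unadjusted p of 0.0535. That p was 0.0441 with median-ratio scaling, 0.0469 with quantile normalization, 0.0187 with the replicate block, 0.0447 without JMJD1B−/− replicate 1 and 0.0328 without WT replicate 2, but 0.383 without WT replicate 1. Eif3k and Eif3h also had no overlap, at 77.1 and 75.3 RPKM in WT against 86.3 and 97.3 RPKM in JMJD1B−/− HSPCs and at 74.2 and 74.3 RPKM in WT against 91.3 and 87.7 RPKM in JMJD1B−/− HSPCs, and a gene-by-gene test gave Eif3h an unadjusted p of 0.0118.

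eIF2 and its exchange factor came next. Eif2b1 encodes the α subunit of eIF2B, the part that senses phosphorylated eIF2. It was at 9.78 and 14.3 RPKM in the WT libraries and at 19.0 and 25.5 RPKM in JMJD1B−/− replicates 1 and 2. Both knockout libraries exceeded both WT libraries, and replicate 2 was the higher in each genotype. The log2 fold change was 0.89 ± 0.27 (SE) with an adjusted p of 0.366 in limma, and the unadjusted p went from 0.0116 to 0.117 without WT replicate 1 and to 0.123 in a gene-by-gene test. Of the other 4 subunits of eIF2B none was called. Eif2b3, part of the catalytic core, was at 8.36 and 8.26 RPKM in the WT libraries and at 8.93 and 11.7 RPKM in JMJD1B−/− replicates 1 and 2, without overlap. Eif2b5, the catalytic subunit and the most abundant of the family, was at 23.6 and 26.3 RPKM in the WT libraries and at 22.1 and 29.7 RPKM in JMJD1B−/− replicates 1 and 2, where JMJD1B−/− replicate 1 was lowest and JMJD1B−/− replicate 2 highest. For Eif2b5 the log2 fold change of 0.04 ± 0.22 (SE) was −0.04 without WT replicate 1 and −0.17 without JMJD1B−/− replicate 2. The 5 genes had a median log2 fold change of 0.29, or 0.30 with quantile normalization, 0.11 without WT replicate 1 and 0.10 without JMJD1B−/− replicate 2.

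Of the 4 eIF2 subunit genes, 3 had both knockout libraries above both WT libraries (20.1% of all genes did) and 0 were called, or 1, Eif2s1, without JMJD1B−/− replicate 1. Eif2s1, the α subunit that is phosphorylated under stress, was at 31.3 and 34.8 RPKM in the WT libraries and at 37.2 and 44.8 RPKM in JMJD1B−/− replicates 1 and 2. Eif2s2, the β subunit, was at 32.1 and 40.4 RPKM in the WT libraries and at 49.7 and 43.04 RPKM in JMJD1B−/− replicates 1 and 2. The γ subunit is made from a pair of near-identical genes on the sex chromosomes, between which reads may have been split. Eif2s3y, on the Y chromosome, was at 50.9 and 1.33 RPKM in the WT libraries and at 64.5 and 59.2 RPKM in JMJD1B−/− replicates 1 and 2. Its low value is that of WT replicate 2, the library with Xist, and the log2 fold change of 2.86 ± 1.36 (SE) was 0.28 without it. Without WT replicate 1 the unadjusted p of Eif2s3y went from 0.0710 to 1.93e-06. Eif2s3x, on the X chromosome, was at 50.5 and 88.1 RPKM in the WT libraries and at 67.8 and 76.2 RPKM in JMJD1B−/− replicates 1 and 2, with WT replicate 2 the highest. Its log2 fold change was 0.11 ± 0.27 (SE), and it was −0.29 without WT replicate 1. Without Eif2s3y the median over the remaining 96 members was 0.17.

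The set holds 3 eIF2α kinase genes. Eif2ak3, which encodes the kinase PERK of the endoplasmic reticulum, was at 9.93 and 10.2 RPKM in the WT libraries and at 8.44 and 8.11 RPKM in JMJD1B−/− replicates 1 and 2, and both knockout libraries lay below both WT libraries. Eif2ak4, which encodes the amino-acid sensor GCN2, was at 15.1 and 13.8 RPKM in the WT libraries and at 11.9 and 13.6 RPKM in JMJD1B−/− replicates 1 and 2, also below WT but by little. Eif2ak1, which encodes the heme-regulated kinase HRI of erythroid cells, was at 19.3 and 30.3 RPKM in the WT libraries and at 24.6 and 34.7 RPKM in JMJD1B−/− replicates 1 and 2. Here replicate 2 exceeded replicate 1 in both genotypes and the groups overlapped. Their log2 fold changes were −0.28 ± 0.23 (SE), −0.18 ± 0.21 (SE) and 0.27 ± 0.28 (SE), none was called, and Eif2ak1 was −0.05 without WT replicate 1. A gene-by-gene test gave Eif2ak3 an unadjusted p of 0.0151, against 0.260 in limma.

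Cap-binding and helicase factors of the eIF4 family were mostly abundant and near WT in the knockout. Of 11 genes 0 were called, and the median log2 fold change was 0.11, which turned to −0.00178 with quantile normalization and to −0.08 without JMJD1B−/− replicate 2, and was 0.24 without JMJD1B−/− replicate 1. Eif4a1, the RNA helicase and the most abundant of them, was at 208 and 224 RPKM in the WT libraries and at 214 and 265 RPKM in JMJD1B−/− replicates 1 and 2. Only JMJD1B−/− replicate 2 stood above the others. For Eif4a1 the log2 fold change of 0.14 ± 0.19 (SE) was −0.01 with quantile normalization and −0.01 without JMJD1B−/− replicate 2. Eif4e2, a cap-binding protein known for repressing some mRNAs, had the highest log2 fold change of the group at 0.41 ± 0.22 (SE). It was at 12.2 and 15.1 RPKM in the WT libraries and at 19.2 and 16.9 RPKM in JMJD1B−/− replicates 1 and 2, without overlap. The log2 fold change of Eif4e2 was 0.26 without WT replicate 1 and 0.56 without WT replicate 2. Eif4g3, a scaffold protein of the cap complex, moved opposite to most members. It was at 42.2 and 42.0 RPKM in the WT libraries and at 32.4 and 32.0 RPKM in JMJD1B−/− replicates 1 and 2. The libraries of each genotype were close to each other and the groups were well apart. Its log2 fold change was −0.38 ± 0.17 (SE) with an unadjusted p of 0.0597 in limma, so it was not called, and with median-ratio scaling and quantile normalization the unadjusted p was 0.0468 and 0.0258, and in a gene-by-gene test 0.000668. The related Eif4g1 was at 98.0 and 115 RPKM in the WT libraries and at 115 and 139 RPKM in JMJD1B−/− replicates 1 and 2, above WT in both knockout libraries but by little in replicate 1.

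The eIF4E-binding proteins of the Eif4ebp genes hold back cap-dependent initiation when mTOR is inactive. The eIF4E transporter gene Eif4enif1 was placed in the same group. None of the 4 genes in the group was called, and their median log2 fold change was 0.22, or 0.27 with quantile normalization. It was −0.14 without WT replicate 1 and −0.03 without JMJD1B−/− replicate 2, and 0.37 when WT replicate 2 was left out. With JMJD1B−/− replicate 1 left out it was 0.43 and 2 genes were called higher. Eif4ebp2 was at 19.9 and 18.9 RPKM in the WT libraries and at 21.1 and 29.0 RPKM in JMJD1B−/− replicates 1 and 2, without overlap, with a log2 fold change of 0.35 ± 0.22 (SE). Eif4ebp1 was at 12.01 and 26.1 RPKM in the WT libraries and at 14.5 and 34.0 RPKM in JMJD1B−/− replicates 1 and 2. Replicate 2 was over 2 times replicate 1 in both genotypes, so the gene varied within genotypes more than between them. Eif4enif1, the transporter that carries eIF4E into the nucleus, was the most abundant of the group, at 33.5 and 41.9 RPKM in the WT libraries and at 37.1 and 42.4 RPKM in JMJD1B−/− replicates 1 and 2. Its log2 fold change of 0.08 ± 0.20 (SE) was −0.08 without WT replicate 1 and −0.01 without JMJD1B−/− replicate 2.

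Factors of start codon selection and of the preinitiation complex were likewise uncalled. Of 10 genes, 2 had both knockout libraries above both WT libraries, the same share as the 20.1% of all genes, and the median log2 fold change of 0.08 was 0.00164 with quantile normalization, and the value was −0.05 without WT replicate 1, 0.19 without WT replicate 2, 0.23 without JMJD1B−/− replicate 1 and −0.08 without JMJD1B−/− replicate 2. Eif1, which guards against wrong start codons, was at 95.7 and 113 RPKM in the WT libraries and at 95.8 and 130.1 RPKM in JMJD1B−/− replicates 1 and 2. Eif1a, which works beside it, had the highest log2 fold change of the group at 0.30 ± 0.20 (SE), and was at 23.2 and 29.1 RPKM in the WT libraries and at 29.8 and 34.0 RPKM in JMJD1B−/− replicates 1 and 2. For Eif1a the log2 fold change was 0.13 without WT replicate 1 and 0.46 without WT replicate 2. Eif5, which makes eIF2 hydrolyse its GTP, was at 75.0 and 100.2 RPKM in the WT libraries and at 76.5 and 77.6 RPKM in JMJD1B−/− replicates 1 and 2. WT replicate 2 was the highest for Eif5 and the other 3 libraries were alike. The log2 fold change of Eif1 was 0.10 ± 0.21 (SE), and −0.01 and −0.12 without WT replicate 1 and without JMJD1B−/− replicate 2. That of Eif5 was −0.17 ± 0.20 (SE), and 0.04 without WT replicate 2.

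**Figure D2:**
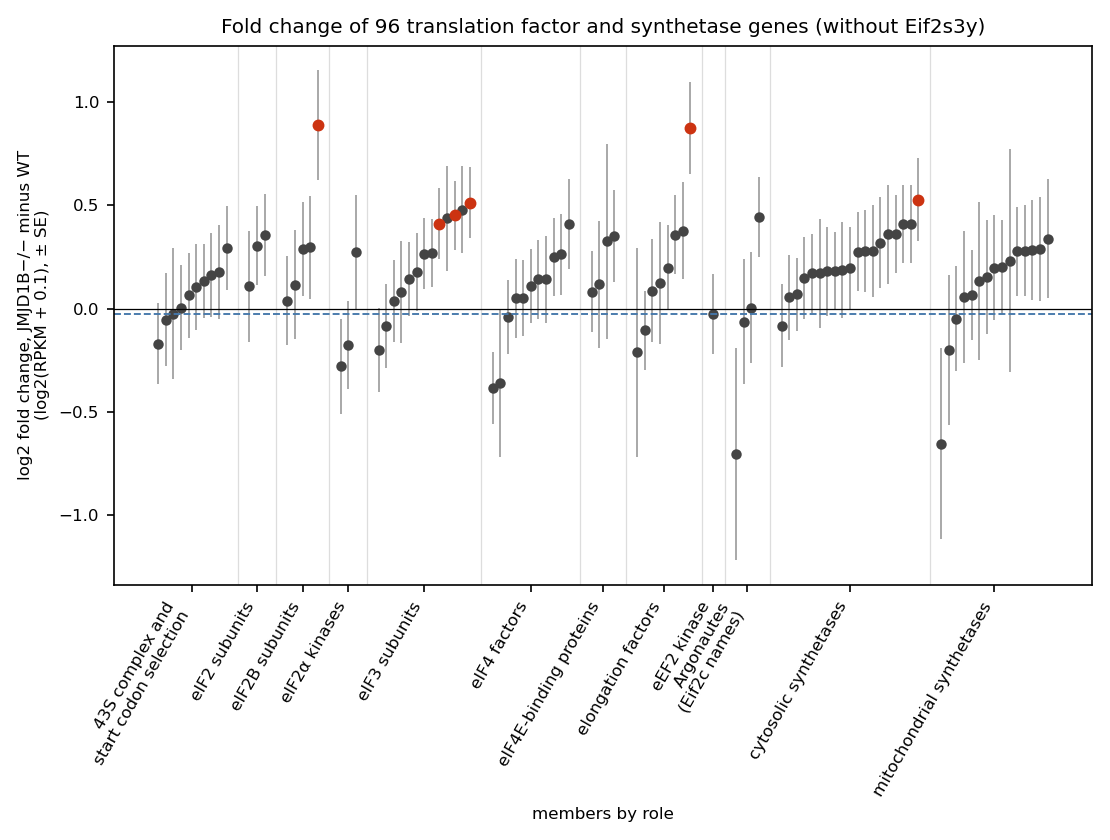
Points are the log2 fold changes (JMJD1B−/− minus WT, on log2(RPKM + 0.1)) of 96 members ordered by role and then by value, bars are ± SE from limma, red points are the 6 members called at an unadjusted p under 0.05, and the dashed line is the median of all genes tested, −0.02. Eif2s3y, at 2.86, is left out for scale. Under quantile normalization 11 members change sign, Eef1a1 among them.

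Among the genes with elongation factor names, the strongest call of the whole set was Eef1e1. Despite its name it encodes AIMP3, a small scaffold protein of the multi-synthetase complex. It was at 19.0 and 20.9 RPKM in the WT libraries and at 30.9 and 43.4 RPKM in JMJD1B−/− replicates 1 and 2. The WT libraries were close to each other, and both knockout libraries were well above them, JMJD1B−/− replicate 2 the most. The knockout mean was 1.86 times the WT mean, the log2 fold change was 0.88 ± 0.22 (SE), and the unadjusted p was 0.00515, with an adjusted p of 0.278 in limma. It was called without each of the libraries in turn, with log2 fold changes from 0.63 to 1.12, but not in a gene-by-gene test (unadjusted p of 0.0750).

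Of the other 7 genes of this group, the elongation factors proper and the eIF5A genes, none was called. Eef1a1, which delivers charged tRNAs to the ribosome, had a log2 fold change of 0.12 ± 0.30 (SE). Only JMJD1B−/− replicate 2 stood apart for Eef1a1, at 3625 RPKM, and the log2 fold change turned to −0.45 with quantile normalization and to −0.03 without JMJD1B−/− replicate 2. Eef2, which moves the ribosome along the mRNA, was at 523 and 493 RPKM in the WT libraries and at 557 and 782 RPKM in JMJD1B−/− replicates 1 and 2, and the groups did not overlap. Its log2 fold change of 0.38 ± 0.23 (SE) was 0.10 with quantile normalization, 0.13 without JMJD1B−/− replicate 2 and 0.62 without JMJD1B−/− replicate 1. Of the exchange factor subunits, Eef1d was at 32.1 and 37.6 RPKM in the WT libraries and at 41.2 and 48.3 RPKM in JMJD1B−/− replicates 1 and 2, without overlap. Eef1b2 was at 289.5 and 331 RPKM in the WT libraries and at 268 and 309 RPKM in JMJD1B−/− replicates 1 and 2, within or below the WT range, and was called lower with quantile normalization (log2 fold change of −0.32, unadjusted p of 0.0371). Eif5a2, with the lowest log2 fold change of the group at −0.21 ± 0.51 (SE), turned to 0.07 with quantile normalization. Eef2k, the kinase that inactivates eEF2, was at 25.0 and 21.6 RPKM in the WT libraries and at 22.8 and 22.8 RPKM in JMJD1B−/− replicates 1 and 2, and its log2 fold change of −0.03 ± 0.19 (SE) was 0.08 without WT replicate 1. Over these 7 factor genes, Eef1e1 left out, the median log2 fold change was 0.12, which turned to −0.02 with quantile normalization and to −0.03 without JMJD1B−/− replicate 2. Without JMJD1B−/− replicate 1 it was 0.34, and Eef2, Eif5a and Eef1d were called higher.

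**Figure D3:**
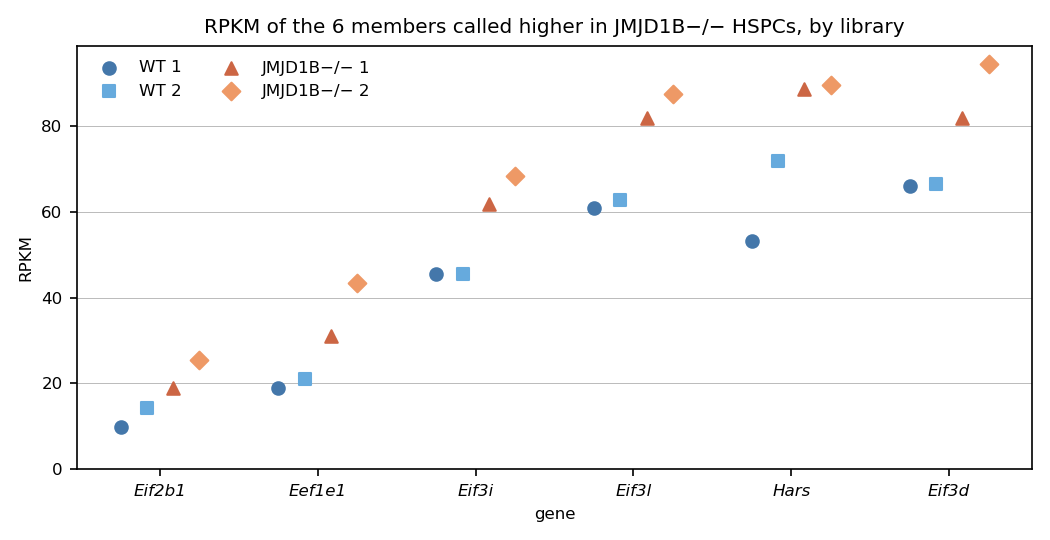
RPKM of the 6 members called higher at an unadjusted p under 0.05 in limma, ordered by mean level, with the 4 libraries side by side. In each gene both JMJD1B−/− points lie above both WT points, from 9.78 against 25.5 RPKM at the extremes for Eif2b1 to 65.98 against 94.6 RPKM for Eif3d. None of the 6 passed an adjusted p of 0.05.

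The table lists the Argonaute genes, whose proteins carry microRNAs and are no initiation factors, under their older Eif2c names, so the name rule took them in. Their median log2 fold change was −0.03, or 0.02 with quantile normalization, and 0 of 4 were called. Without JMJD1B−/− replicate 1 the median was 0.25 with 1 called higher, and without JMJD1B−/− replicate 2 it was −0.31 with 1 called lower, Eif2c1. Eif2c2, the gene for Argonaute 2, the slicing Argonaute, was at 24.5 and 26.2 RPKM in the WT libraries and at 31.1 and 38.2 RPKM in JMJD1B−/− replicates 1 and 2. The groups did not overlap, and limma gave an unadjusted p of 0.0555, or 0.0225 with median-ratio scaling, 0.0267 with quantile normalization, 0.0370 with the replicate block and 0.0121 without JMJD1B−/− replicate 1. Eif2c4 was at 2.55 and 1.83 RPKM in the WT libraries and at 0.992 and 1.67 RPKM in JMJD1B−/− replicates 1 and 2, with both knockout libraries below WT and a log2 fold change of −0.70 ± 0.51 (SE). For Eif2c4 this was −0.45 with quantile normalization, −0.36 without JMJD1B−/− replicate 1 and −1.05 without JMJD1B−/− replicate 2. Without the Argonautes the median of the remaining 93 members was 0.18.

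Cytosolic synthetases had a small median excess in the knockout. Of 19 genes 1 was called higher and 0 lower, beside 3.81% and 6.33% of all genes. Both knockout libraries were above both WT libraries in 8 and below in 0, beside 20.1% and 22.7% of all genes, and the median log2 fold change was 0.19, or 0.19 with quantile normalization. Leaving out a library gave 0.12 without WT replicate 1, 0.34 without WT replicate 2, 0.41 without JMJD1B−/− replicate 1 and 0.08 without JMJD1B−/− replicate 2. JMJD1B−/− replicate 2 lay above both WT libraries in 19 of 19 and JMJD1B−/− replicate 1 in 8. Hars, the histidyl-tRNA synthetase gene and the most abundant, was at 53.1 and 71.9 RPKM in the WT libraries and at 88.5 and 89.7 RPKM in JMJD1B−/− replicates 1 and 2. The knockout libraries were alike and stood above WT, while the WT libraries were apart. Hars had a log2 fold change of 0.53 ± 0.20 (SE) with an adjusted p of 0.449 in limma. The log2 fold change was 0.31 without WT replicate 1, where the call was lost, and 0.75 without WT replicate 2. The unadjusted p went from 0.0325 to 0.0921 with limma without a trend and to 0.137 in a gene-by-gene test. Without JMJD1B−/− replicate 1, 6 cytosolic synthetases were called higher, and with quantile normalization 3.

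Iars and Farsb, the genes for the isoleucyl enzyme and for the β subunit of the phenylalanyl enzyme, came next. Iars was at 32.9 and 36.5 RPKM in the WT libraries and at 42.2 and 50.4 RPKM in JMJD1B−/− replicates 1 and 2 and Farsb at 34.7 and 32.8 RPKM in the WT libraries and at 40.5 and 49.5 RPKM in JMJD1B−/− replicates 1 and 2. Neither overlapped, and their unadjusted p in limma was 0.0630 and 0.0657. Median-ratio scaling gave 0.0265 and 0.0257, quantile normalization 0.0315 and 0.0438. They were 0.0415 and 0.0470 with the replicate block and 0.0181 and 0.0148 without JMJD1B−/− replicate 1, and above 0.05 without each other library. Kars, whose lysyl-tRNA synthetase serves both cytosol and mitochondria, was at 47.1 and 55.2 RPKM in the WT libraries and at 59.7 and 71.7 RPKM in JMJD1B−/− replicates 1 and 2, without overlap, and its unadjusted p of 0.0974 was 0.0462 with median-ratio scaling and 0.0284 without JMJD1B−/− replicate 1. Nars, the asparaginyl-tRNA synthetase gene, was the only cytosolic synthetase with a negative value, and had 55.9 and 62.0 RPKM in WT against 48.4 and 63.8 RPKM in JMJD1B−/− HSPCs. JMJD1B−/− replicate 1 was the lowest library and JMJD1B−/− replicate 2 the highest, and the log2 fold change of −0.08 ± 0.20 (SE) was 0.12 without JMJD1B−/− replicate 1. Vars, the valyl-tRNA synthetase gene, went from 0.05 to −0.03 with quantile normalization.

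The 15 mitochondrial synthetase genes of the set were lower in level, with a median WT mean of 11.0 RPKM against 34.7 RPKM for the cytosolic ones. None was called, 5 had both knockout libraries above both WT libraries and 0 below, beside 20.1% and 22.7% of all genes, and the median log2 fold change was 0.20, or 0.22 with quantile normalization. That median was 0.05 when JMJD1B−/− replicate 2 was left out, 0.31 when JMJD1B−/− replicate 1 was, and 0.13 when WT replicate 1 was. Ears2, the glutamyl-tRNA synthetase gene, had the highest value at 0.34 ± 0.29 (SE) and was at 4.09 and 5.02 RPKM in the WT libraries and at 5.74 and 5.78 RPKM in JMJD1B−/− replicates 1 and 2. For Ears2 the log2 fold change was 0.19 without WT replicate 1 and 0.48 without WT replicate 2. Lars2, the leucyl enzyme, was an exception in level and in spread, at 454 and 116 RPKM in the WT libraries and at 279.7 and 261 RPKM in JMJD1B−/− replicates 1 and 2. The WT libraries were the highest and the lowest of the 4. For Lars2 the log2 fold change of 0.23 ± 0.54 (SE) was 1.22 without WT replicate 1, with an unadjusted p of 0.00309, and −0.75 without WT replicate 2, with an unadjusted p of 0.0323. Sars2, the seryl enzyme, was at 7.94 and 7.16 RPKM in the WT libraries and at 2.84 and 7.92 RPKM in JMJD1B−/− replicates 1 and 2. JMJD1B−/− replicate 1 alone was low. The log2 fold change of −0.65 ± 0.46 (SE) was 0.07 without that library, and −1.38 without JMJD1B−/− replicate 2, with an unadjusted p of 0.000572. Vars2 was the other gene called lower without JMJD1B−/− replicate 2, and 3 genes were called higher without JMJD1B−/− replicate 1.

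Promoter sequences from RefSeq (GRCm38.p6), from 250 bases before to 50 after an annotated start, were found for 75 of the 97 members and for 27025 genes in all. Both strands were searched for 9 motifs, and a gene with several starts was counted if any window held the letters. For the motifs, all genes means these 27025 genes, whether or not they are in the RNA-seq table. The E-box CACGTG, a motif that Myc with Max can bind, was in 17 of 75 (22.7%) against 8.09% of all genes. The core of the C/EBP-ATF response element, TGATGNAA, through which ATF4 acts on genes of amino acid supply, was in 7 of 75 (9.33%) against 4.51% of all genes. The ETS core CCGGAAGT was in 12 of 75 (16.0%) against 4.31% of all genes. The GATA core GATAAG was in 1 of 75 (1.33%) against 8.58% of all genes, the CCAAT box in 30 of 75 (40.0%) against 41.1% of all genes, and TATAAA in 8 of 75 (10.7%) against 15.7% of all genes. The NRF1 core GCATGCGC was in 8 of 75 (10.7%) against 3.05% of all genes, its palindromic form with 2 more bases in front, which was searched first, in 1 of 75 (1.33%) against 1.07% of all genes, and the cyclic AMP response element TGACGTCA in 1 of 75 (1.33%) against 2.03% of all genes. A match is a run of letters and not a measured binding site. The 27025 genes were not matched to the members in expression, and whether other expressed genes hold these motifs as often was not tested.

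The response element core was mostly in cytosolic synthetase genes, 5 of 12 with a promoter window, and the windows of 4 are given. Each is 30 bases in the direction of the gene with the matched letters in capitals, and where the match is on the other strand the capitals read as its reverse complement.
Gars, chr6:55037960-55037989, plus strand: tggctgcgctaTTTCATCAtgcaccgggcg
Iars, chr13:49682126-49682155, plus strand: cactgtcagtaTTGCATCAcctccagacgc
Tars, chr15:11399655-11399684, minus strand: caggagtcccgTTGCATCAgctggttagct
Yars, chr4:129189895-129189924, plus strand: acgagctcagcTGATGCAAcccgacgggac
Yars was at 21.3 and 23.2 RPKM in WT against 24.5 and 29.8 RPKM in JMJD1B−/− HSPCs, without overlap. Gars, at 56.3 and 69.2 RPKM in WT against 60.6 and 82.7 RPKM in JMJD1B−/− HSPCs, and Tars, at 27.1 and 31.9 RPKM in WT against 31.2 and 35.1 RPKM in JMJD1B−/− HSPCs, overlapped between genotypes.

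Of the 6 members called higher, 4 had a promoter window. Both eIF3 genes among them held the ETS core, which 2 of 10 eIF3 genes, 16.0% of the members and 4.31% of all genes with a promoter hold. None of the other members with the ETS core was called. Eif3l and Eef1e1 held a CCAAT box, which 41.1% of all genes with a promoter hold, and Eif2b1 held none of the 9 motifs. The ETS matches and the CCAAT box of Eef1e1 are shown in the same way.
Eif3d, chr15:77970877-77970906, minus strand: agctgtgacacACTTCCGGttgtgtctcac
Eif3l, chr15:79075176-79075205, plus strand: ggctgggcgggACTTCCGGtccggccaagc
Eef1e1, chr13:38659068-38659097, minus strand: ccgtcctcccagCCAATcgtgggagacatc
The E-box is shown for Eif4a1, the most abundant eIF4 member, which was not called.
Eif4a1, chr11:69672595-69672624, minus strand: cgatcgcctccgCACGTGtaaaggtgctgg

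Genes around the translation machinery gave a setting for these values. Of 25 listed genes of the integrated stress response, 3 were called higher and 1 lower, beside 3.81% and 6.33% of all genes tested. The median was 0.03 on the log2 scale. That median was −0.10 without WT replicate 1 and −0.02 without JMJD1B−/− replicate 2. The calls were 0 higher and 1 lower without WT replicate 1, 2 and 0 without WT replicate 2, 4 and 2 without JMJD1B−/− replicate 1, and 1 and 3 without JMJD1B−/− replicate 2. Atf4, its main transcription factor and the most abundant, was at 57.7 and 66.9 RPKM in WT against 54.0 and 65.6 RPKM in JMJD1B−/− HSPCs. The groups overlapped. Sesn2, Mthfd2 and Slc7a1 were called higher, and Ppp1r15a, whose protein GADD34 helps to dephosphorylate eIF2, lower. Sesn2, an inhibitor of mTORC1 in leucine shortage, was at 2.33 and 1.92 RPKM in WT against 3.48 and 4.69 RPKM in JMJD1B−/− HSPCs, and lost its call without WT replicate 1 (unadjusted p of 0.126), without WT replicate 2 (0.223) and without JMJD1B−/− replicate 2 (0.107). Mthfd2, an enzyme of mitochondrial folate metabolism, was at 6.59 and 9.16 RPKM in WT against 11.7 and 13.3 RPKM in JMJD1B−/− HSPCs, and lost it without WT replicate 1 (0.255) and without JMJD1B−/− replicate 2 (0.0551). Slc7a1, a transporter of cationic amino acids, was at 9.13 and 10.5 RPKM in WT against 15.1 and 15.5 RPKM in JMJD1B−/− HSPCs, and lost it without WT replicate 1 (0.160) and without WT replicate 2 (0.0699). None of these overlapped between genotypes. Ppp1r15a was at 38.2 and 52.5 RPKM in WT against 29.2 and 31.9 RPKM in JMJD1B−/− HSPCs, below WT in both knockout libraries, and lost its call without WT replicate 2 (0.290) and without JMJD1B−/− replicate 1 (0.0532). A gene-by-gene test lost Sesn2 (0.0681), Mthfd2 (0.114) and Ppp1r15a (0.146), and the replicate block lost Sesn2 (0.0891).

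Synthetase and scaffold genes whose names the rule does not take, led by Eprs, had 0 of 10 called and a median log2 fold change of −0.13, or 0.30 without JMJD1B−/− replicate 1, where 1 was called higher. Without JMJD1B−/− replicate 2 the median was −0.32 and 3 of them were called lower. Eprs, which joins glutamate and proline to their tRNAs, was at 75.4 and 86.5 RPKM in WT against 96.1 and 97.5 RPKM in JMJD1B−/− HSPCs, without overlap. In this list both knockout libraries were above both WT libraries in 1 gene and below in 3, Fars2 among them, beside 20.1% and 22.7% of all genes. Genes of termination, recycling and rescue had 1 of 9 called higher and 0 lower, beside 3.81% and 6.33% of all genes tested. Their median of −0.02 turned to 0.09 with quantile normalization, to 0.26 without JMJD1B−/− replicate 1, to 0.03 without WT replicate 1 and to 0.05 without WT replicate 2. It was −0.13 without JMJD1B−/− replicate 2, and Etf1, the release factor gene, was the most abundant. The called gene was Abce1, whose ATPase splits ribosomes for reuse, at 53.0 and 60.2 RPKM in WT against 78.5 and 84.2 RPKM in JMJD1B−/− HSPCs. Its groups did not overlap, the log2 fold change was 0.52 ± 0.17 (SE), and the unadjusted p of 0.0184 in limma was 0.139 without WT replicate 1 and 0.0532 without WT replicate 2. Of 11 mitochondrial translation factors, 21 accessory factors and 14 genes of mTOR and MNK signalling none was called, with medians of 0.11, −0.01 and 0.03, the last of which turned to −0.05 with quantile normalization, to −0.06 without WT replicate 2 and to −0.11 without JMJD1B−/− replicate 2. Among accessory factors the median turned to 0.16 when JMJD1B−/− replicate 1 was left out, to 0.05 without WT replicate 2, and was −0.13 without JMJD1B−/− replicate 2. Among mitochondrial factors it was 0.01 without JMJD1B−/− replicate 2, 0.04 without WT replicate 1, 0.24 without JMJD1B−/− replicate 1 and 0.19 without WT replicate 2. Calls appeared without JMJD1B−/− replicate 1 in all 3 lists, with 1, 3 and 2 genes higher, and without JMJD1B−/− replicate 2 with 2 mitochondrial factors lower and 1 accessory factor each way. Quantile normalization called 1 mitochondrial factor higher, 1 accessory factor each way and 1 signalling gene lower. The most abundant genes of these lists were Gfm1, Pabpc1 and Rps6.

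Genes of the dividing cell were also listed. Of 22 proliferation genes, 17 had both knockout libraries above both WT libraries, which held for 20.1% of the genes tested, and 0 below. Of the 22, 4 were called higher and 0 lower, beside 3.81% and 6.33% of all genes tested. The median log2 fold change was 0.27, or 0.22 with quantile normalization, 0.14 without WT replicate 1 and 0.16 without JMJD1B−/− replicate 2. Rrm2, a subunit of ribonucleotide reductase, was at 37.3 and 54.1 RPKM in WT against 82.1 and 75.4 RPKM in JMJD1B−/− HSPCs. Rrm2 had a log2 fold change of 0.81 ± 0.22 (SE) with an unadjusted p of 0.00712 in limma, or 0.0792 without WT replicate 1 and 0.0988 in a gene-by-gene test. Mcm5, Rrm1 and Ccna2 were the others, at log2 fold changes of 0.50 ± 0.18 (SE), 0.48 ± 0.18 (SE) and 0.43 ± 0.18 (SE). The calls numbered 0 without WT replicate 1, 1 without WT replicate 2, 2 without JMJD1B−/− replicate 2 and 6 without JMJD1B−/− replicate 1. Mki67 was the most abundant, at 206 and 244 RPKM in WT against 293 and 250.2 RPKM in JMJD1B−/− HSPCs. Myc, whose protein promotes transcription of many translation genes, was at 87.0 and 81.3 RPKM in the WT libraries and at 47.3 and 82.7 RPKM in JMJD1B−/− replicates 1 and 2, and JMJD1B−/− replicate 1 alone was low, with an unadjusted p of 0.154, or 0.00120 without JMJD1B−/− replicate 2. Mycl1, a low gene of the same family, was called lower, at 1.67 and 2.62 RPKM in WT against 0.983 and 0.326 RPKM in JMJD1B−/− HSPCs. That call was lost without WT replicate 1 (unadjusted p of 0.112), without WT replicate 2 (0.285) and without JMJD1B−/− replicate 2 (0.0668), and with median-ratio scaling (0.0569), quantile normalization (0.0763), the gene-by-gene test (0.150) and the replicate block (0.0532). The share of dividing cells and of erythroid cells in each library was not measured, and its part in the members' values was not tested.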

How the data were processed

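HSPC polyA RNA was sequenced from 2 WT and 2 JMJD1B−/− samples, and ChIP samples of the series were not used here. The authors deposited RPKM per gene with 1 added, which was subtracted. Processing notes credited to the submitters name mm9, TopHat2 and Novoalign without roles, and the counting program and annotation are not given in the sources used here. The table has 12024 entries, of which 84 repeat a symbol; they were averaged to 42 genes, none of them a member. Every entry reaches an RPKM of 1 in some library, so genes below that in all libraries were not analysed here.

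A mean RPKM of 0.5 or more was needed to enter limma 3.58.1 (R 4.3.3, lmFit and eBayes with trend) on log2(RPKM + 0.1), JMJD1B−/− against WT, two-sided, with Benjamini-Hochberg adjustment over 11863 genes and a threshold of 0.05. A fold change on this scale understates that of low genes. The labels name biological replicates, and p-values measure the spread between these libraries. Values were handled in Python 3.11.15 with pandas 2.3.3 and numpy 2.4.6, and plotted with matplotlib 3.10.9. The fit was tested on simulated data, where the share of false calls past the adjusted threshold was above the nominal one. Relative depth came from low genes whose values stand in whole-number ratios to those of WT replicate 1. There were 187 such genes for WT replicate 2, 271 for JMJD1B−/− replicate 1 and 168 for JMJD1B−/− replicate 2, against 2 by chance. The read totals also rest on RefSeq gene lengths, and 32 of 145 genes with whole reads in all libraries gave the same total within 0.2%.

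Named were Kdm3b, members called without overlap, in each role the most abundant member and those with the highest and lowest log2 fold change, Eif2b1, the γ subunit genes of eIF2, called genes of the other lists (at most 5 a list), and of each marker list its most abundant gene. Other genes given with values were chosen after their values were seen, and the promoter motifs were chosen after matches to several had been seen. The shorter NRF1 form was added after the result of the longer form was known. The members and lists were chosen with earlier results of these data known. Alternatives were other pseudocounts and filters, median-ratio and quantile scaling, limma without a trend, a gene-by-gene test, the replicate number as a block, the highest entry of a shared name, and leaving out each library.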

Additional observations from a re-analysis of the deposited data

How the results depend on the processing

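The median log2 fold change of the members was positive under every alternative tried, from 0.02 to 0.33 over the fits that leave out 1 library. The 6 called genes kept their sign in all of them, but only the scaling alternatives could have changed it. The filters, the other tests, the replicate block and the highest entry of a shared name leave the log2 fold change of a member as it is. In the 6 called genes both knockout libraries exceeded both WT libraries, so leaving out a library or another pseudocount could not change their sign. Their calls were kept less often: 2 of 6 with limma without a trend, 2 with the gene-by-gene test, 1 without WT replicate 1, 3 without WT replicate 2 and 4 without JMJD1B−/− replicate 2. Other counts moved. Members called higher, 6 as reported, were 11 with median-ratio scaling, 10 with quantile normalization, 2 with limma without a trend, and 3 to 24 when 1 library was left out. Members called lower, 0 as reported, were 1 with median-ratio scaling, 2 with quantile normalization, 2 with the gene-by-gene test, and 0 to 3 when 1 library was left out. Members past an adjusted p of 0.05 were 0 to 2 when 1 library was left out. The counts above both and below both WT libraries, 33 and 5, were 34 to 79 and 6 to 25 when 1 library was left out, where fewer libraries are compared, and the count below was 9 with quantile normalization. The cause of the other shifts was not tested.

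Over all genes the replicate numbers did not pair the libraries, since the deviations of same-numbered libraries correlated across 11863 genes at −0.05, where genes are not independent replicates. Among members, replicate 2 exceeded replicate 1 in 78.4% in WT and in 84.5% in JMJD1B−/− HSPCs, against 50.6% and 65.6% of all genes. With the replicate block 12 members were called higher and 0 lower, and 3 passed an adjusted p of 0.05, where 571 of all genes were called higher, 914 lower and 256 passed.

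Of the alternatives for single named genes, 382 kept direction and side of an unadjusted p of 0.05, 18 lost and 13 gained a call at that level, and 21 changed sign. The count of 382 includes alternatives that could not change direction. The filters and the highest entry of a shared name leave a member's values unchanged, and the other tests and the replicate block can change its p only. With quantile normalization the log2 fold change was −0.45 for Eef1a1, −0.0117 for Eif4a1 and 0.0731 for Eif5a2. When 1 library was left out, sign changes gave ranges of −0.0272 to 0.27 for Eef1a1, −0.13 to 0.0784 for Eef2k, −0.12 to 0.33 for Eif1, −0.0534 to 0.60 for Eif2ak1, −0.17 to 0.25 for Eif2b5, −0.29 to 0.51 for Eif2s3x, −0.28 to 0.11 for Eif3a, −0.43 to 0.0316 for Eif3c, −0.0121 to 0.30 for Eif4a1, −0.0781 to 0.24 for Eif4enif1, −0.38 to 0.0396 for Eif5, −0.75 to 1.22 for Lars2, −0.28 to 0.12 for Nars, −1.38 to 0.0700 for Sars2. JMJD1B−/− replicate 1, the shallowest library, limits what can be said of members of few RPKM.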
